A study of Arabidopsis thaliana with 24 samples.

Results

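The 8 genes described here act in flavonoid and anthocyanin synthesis or on its entry enzyme. They were chosen by name for these roles, with earlier results of these data known. They are DFR (AT5G42800), UGT78D2 (AT5G17050), UGT78D1 (AT1G30530), UF3GT (AT5G54060), AT4G14090, AT5MAT (AT3G29590), CHIL (AT5G05270) and AT1G23390. Each had exactly 1 probe set (a group of oligonucleotides on the array that reports 1 transcript) listed for that gene alone, so that 8 of 13350 genes named in this way were followed. The question was which steps responded 6 h after a drop in temperature, which were seen only at 78 h, and from which temperature on.

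Flavonoids are built from phenylalanine through the general phenylpropanoid pathway. Chalcone synthase makes the first flavonoid skeleton, later enzymes turn it into flavonols or, through dihydroflavonol reductase, into anthocyanins, and glycosyltransferases and acyltransferases attach sugars and acids to both. In Arabidopsis leaves flavonols act as sunscreens, and anthocyanins are red pigments that accumulate in the vacuole under strong light, sugar supply and cold.

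The plants were Arabidopsis thaliana Col-0, a wild-type laboratory accession, grown on soil at 20 °C in days of 12 h of light. At 4 weeks, when the day's light had been on for 4 h, plants went to 17, 14, 12, 10 or 8 °C, while control plants stayed at 20 °C. The harvests followed 78 h or 6 h later, each after 10 h of that day's light, with 3 rosettes in a sample. Each of the 12 combinations of temperature and harvest has 2 one-colour arrays, marked A and B in the labels, and no other treatment or genotype was used.

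Values are deposited signals on a log2 scale, so that a difference of 1 is a doubling, and they lay between 3.87 and 14.81 over 22746 tested probe sets, with array medians between 7.15 and 7.25. The letter was the main source of variation, since principal component 1 (39.2% of the variance) parted the A from the B arrays completely. The leaf markers PSAN, PSBW, PSAE-1 and LHCB4.1, subunits of the photosystems and their antenna, had mean signals between 13.57 and 14.43. All 4 fell with cooling at 78 h, with slopes between -0.35 and -0.19 log2 per 10 °C, and none passed at 6 h. These were 4 of the 7 leaf markers listed, and 3 of 4 root markers were measured but no marker of flowers, seeds or senescent leaves. The summed signal of the root markers PYK10, EXPA7 and EXPA18 lay at 78 h between 7.97 and 8.54 at 8 °C, against 9.37 to 9.95 at 20 °C, and at 6 h between 9.84 and 10.08 at 8 °C, against 9.93 to 10.09 at 20 °C (log2 of the sum). PYK10 alone among them passed at 8 °C and 78 h (-1.89 ± 0.29, adjusted p = 0.00118), while EXPA7 had 0.15 ± 0.13 and EXPA18 -0.11 ± 0.10. The part of these markers in the members' results at 78 h was not tested. In whole rosettes fewer cells of a type and less RNA per cell cannot be told apart, and with 2 arrays in a group the precision of every value is limited.

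Most of these genes passed the test as higher in the cold at 78 h, and fewer passed at 6 h. Passing at 1 harvest alone does not show that the harvests differed. A test of that, as a difference of slopes, passed for 2 of 8 members (DFR and UF3GT), and for 5 with the replicate letter as a block. At 78 h DFR, UF3GT, AT5MAT and UGT78D2 were higher than at 20 °C at 12, 10 and 8 °C, and AT4G14090 at 10 and 8 °C. The kelch F-box gene AT1G23390 was lower at 8 °C. At 6 h UGT78D2 was higher from 14 °C down and AT5MAT from 12 °C down, and AT1G23390 was lower from 12 °C down. CHIL passed no comparison with 20 °C without the replicate letter as a block, except at 8 and 10 °C and 78 h under some other alternatives, and UGT78D1 passed none in either fit.

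These counts are set beside the share of all probe sets past the same test (limma, Benjamini-Hochberg adjusted p below 0.05). Here and below, such a background share counts probe sets called in either direction, also where the members are counted by direction. The members were chosen with earlier results of these data known, so the shares serve as a description and not as a test. At 78 h no member passed at 17 or 14 °C, where the background was 0% and 0.0352%, and at 17 °C 458 probe sets had an unadjusted p under 0.05. At 12 °C 4 members rose against a background of 0.774% of all probe sets (84 up and 92 down). At 10 °C 5 rose against 4.27% (465 up and 506 down), and at 8 °C 5 rose and 1 fell against 7.36% (664 up and 1011 down). The members' median change at 78 h was 0.55 at 17 °C, 0.96 at 14 °C, 1.56 at 12 °C, 1.82 at 10 °C and 1.61 at 8 °C on the log2 scale, beside medians over all probe sets between -0.01 and 0.03. With the letter as a block more probe sets passed in all. Then 2 members rose at 14 °C (DFR and AT5MAT, background with the block 1.12%) and 6 at 12 °C (5.77%), and 6 rose and 1 fell at 10 °C (16.8%) and at 8 °C (22.3%).

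At 6 h no member passed at 17 °C (background 0%, with 834 probe sets at an unadjusted p under 0.05). At 14 °C 1 member rose (background 0.391%), at 12 °C 2 rose and 1 fell (2.72%), at 10 °C 2 rose and 1 fell (6.52%), and at 8 °C 2 rose and 1 fell (6.03%). The members' median change was 0.46 at 17 °C, 0.65 at 14 °C, 0.41 at 12 °C, 0.32 at 10 °C and 0.25 at 8 °C, beside medians over all probe sets between 0 and 0.02. In all, 3 of 8 members passed the test at 6 h at some temperature, UGT78D2, AT5MAT and AT1G23390. The block added AT5MAT as higher and AT1G23390 as lower at 14 °C (background with the block 4.56%), and CHIL as higher at 12 °C (12.1%) and 10 °C (19.5%).

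**Figure D1:**
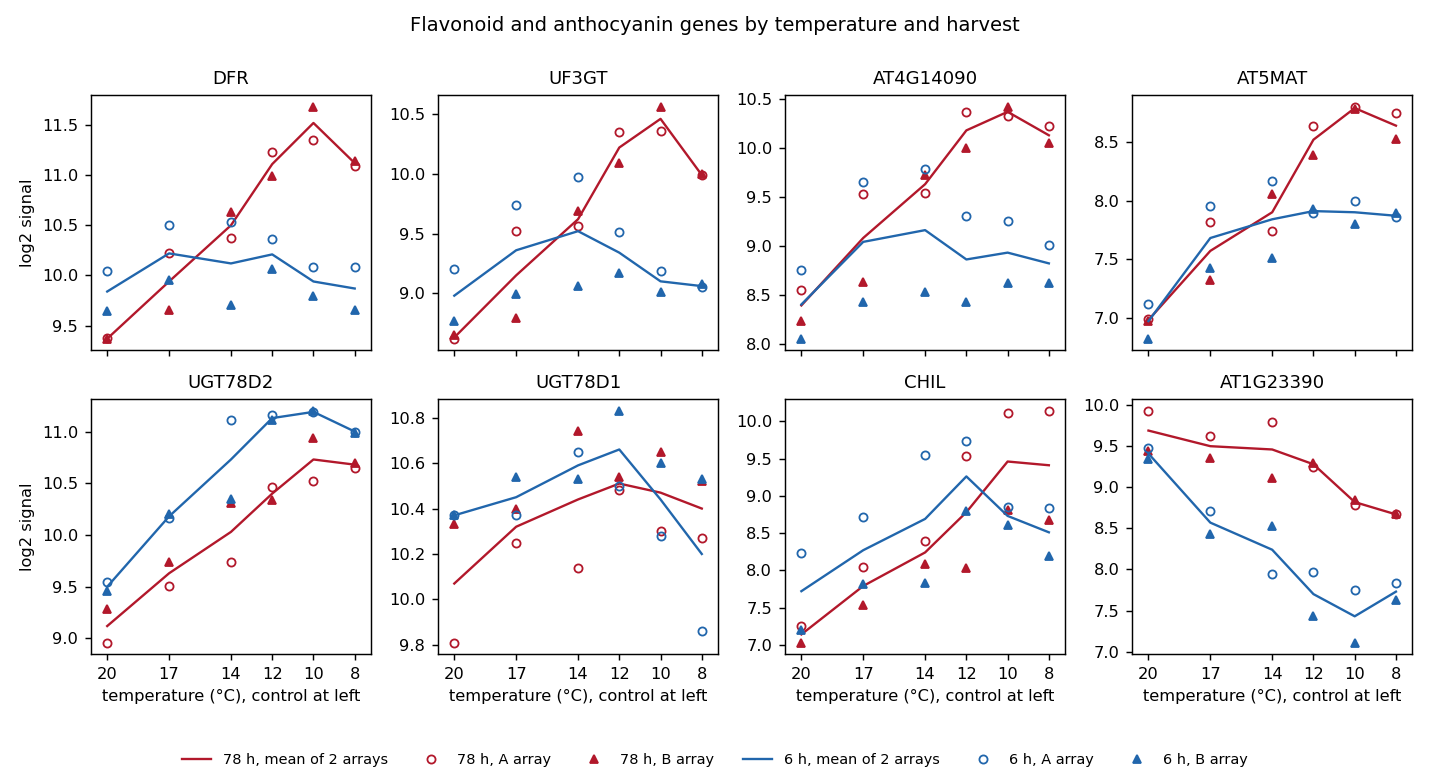
Log2 signal (vertical axes, each with its own range) against temperature in °C (horizontal axis, 20 °C control at the left) for the 8 genes, with 78 h in red and 6 h in blue, A arrays as circles, B arrays as triangles and lines through the means of 2 arrays. The lines of DFR, UF3GT and AT4G14090 climb at 78 h and, of these, DFR stays between 9.65 and 10.53 at 6 h, while UGT78D2 climbs and AT1G23390 drops at both harvests and UGT78D1 stays between 9.81 and 10.83.

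The first member in pathway order acts at the entry. CHIL resembles chalcone isomerase but does not catalyse its reaction, and it raises the output of chalcone synthase by binding it. At 78 h its A and B arrays gave log2 signals of 7.25 and 7.03 at 20 °C, 8.04 and 7.53 at 17 °C, 8.4 and 8.08 at 14 °C, 9.53 and 8.03 at 12 °C, 10.11 and 8.81 at 10 °C, and 10.14 and 8.67 at 8 °C. All arrays of the lower temperatures were above both control arrays, and from 12 °C down the A array exceeded the B array by more than 1. At 6 h CHIL had 8.23 and 7.2 at 20 °C, 8.71 and 7.82 at 17 °C, 9.55 and 7.83 at 14 °C, 9.73 and 8.8 at 12 °C, 8.85 and 8.61 at 10 °C, and 8.83 and 8.19 at 8 °C. Here the B arrays of 17, 14 and 8 °C lay below the A array of 20 °C, so that the groups overlapped.

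CHIL had the largest estimates among the members at 10 and 8 °C and 78 h together with the widest error. It differed from 20 °C by 2.31 ± 0.67 at 10 °C (SE, limma adjusted p = 0.0715, and 0.000214 with the letter as a block) and by 2.26 ± 0.67 at 8 °C (0.0557, and 0.000154 with the block). The call at 8 °C was also gained with array weights (0.0213), without the dimmest probe sets (0.0427), with median centring (0.0458) and in 5 omissions of an array, and that at 10 °C in 2 omissions (0.048). At 12 °C the difference was 1.64 ± 0.67 at 78 h (0.487, and 0.00756 with the block) and 1.55 ± 0.67 at 6 h (0.336, and 0.00555 with the block). The A array was higher than the B array in 12 of 12 groups, by 0.90 on average and by between 0.22 and 1.72. The A arrays alone gave slopes of 2.61 at 78 h and 0.54 at 6 h, and the B arrays 1.45 at 78 h and 1.03 at 6 h (log2 per 10 °C of cooling), so that the slope was steeper in A at 78 h and in B at 6 h. The slope over all temperatures at 78 h was called, but not when the A or the B control array of 78 h or the A array of 8 °C was left out (adjusted p of 0.0502, 0.0573 and 0.0756). At 6 h the slope of 0.79 ± 0.47 did not pass (0.378) and did with the block (0.0176) and in the B arrays alone (0.015).

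AT1G23390 encodes a kelch-repeat F-box protein that marks chalcone synthase for degradation, and it was the only member that fell. At 78 h it had 9.93 and 9.44 at 20 °C, 9.63 and 9.36 at 17 °C, 9.8 and 9.11 at 14 °C, 9.25 and 9.3 at 12 °C, 8.79 and 8.85 at 10 °C, and 8.68 and 8.67 at 8 °C. At 6 h the signals were 9.48 and 9.35 at 20 °C, 8.71 and 8.43 at 17 °C, 7.94 and 8.53 at 14 °C, 7.97 and 7.43 at 12 °C, 7.75 and 7.11 at 10 °C, and 7.84 and 7.63 at 8 °C. At 6 h all arrays of the lower temperatures lay below both control arrays, from 17 °C down. At 78 h only those of 12, 10 and 8 °C did.

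The early fall of AT1G23390 reached -1.72 ± 0.27 at 12 °C (adjusted p = 0.00295), -1.98 ± 0.27 at 10 °C (0.000478) and -1.68 ± 0.27 at 8 °C (0.00169). At 10 °C this was 0.253 times the level at 20 °C, and only 7 of 22746 probe sets had a lower estimate there. At 14 °C the change was -1.18 ± 0.27 (0.0909, and 0.0101 with the block) and at 17 °C -0.84 ± 0.27 (0.928). At 78 h the estimates were nearer to 0, -1.01 ± 0.27 at 8 °C (0.0327) and -0.87 ± 0.27 at 10 °C (0.0966, and 0.0154 with the block). The call at 8 °C was lost without the A control array (-0.77, adjusted p = 0.31), the A array of 8 °C (0.16) or the B array of 8 °C (0.136), and the call at 12 °C and 6 h without the B array of that group (-1.45, 0.0546). The call of the slope at 78 h was likewise lost without the A control array (-0.69, adjusted p = 0.0927) and in the B arrays alone (-0.61, 0.148).

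DFR reduces dihydroflavonols to leucoanthocyanidins, the step that leads away from flavonols towards anthocyanins. Its arrays of 78 h gave 9.38 and 9.37 at 20 °C, 10.22 and 9.66 at 17 °C, 10.37 and 10.63 at 14 °C, 11.23 and 10.99 at 12 °C, 11.35 and 11.68 at 10 °C, and 11.09 and 11.14 at 8 °C. All 10 arrays of the lower temperatures were above both control arrays. At 6 h it had 10.04 and 9.65 at 20 °C, 10.5 and 9.95 at 17 °C, 10.53 and 9.71 at 14 °C, 10.36 and 10.06 at 12 °C, 10.08 and 9.8 at 10 °C, and 10.08 and 9.66 at 8 °C. At this harvest only the 12 °C arrays were both above the control arrays, and by little.

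At 78 h DFR rose by 1.74 ± 0.27 at 12 °C (3.34-fold, adjusted p = 0.00759), by 2.15 ± 0.27 at 10 °C (4.42-fold, 0.000584) and by 1.75 ± 0.27 at 8 °C (3.35-fold, 0.00115). Its difference at 14 °C was 1.13 ± 0.27 (0.265, and 0.0224 with the block) and at 17 °C 0.57 ± 0.27 (1). The change at 12 °C was thus 99.6% of that at 8 °C, and the change at 17 °C 32.7% of it. The calls at 10 and 8 °C were kept when any single array was left out, and that at 12 °C was lost without the A array of 12 °C or either control array of 78 h (adjusted p up to 0.127). At 6 h the differences ran between 0.03 and 0.38 with adjusted p-values of 0.734 or more.

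UGT78D2 transfers glucose to the 3-O position of flavonols and anthocyanidins, and thereby serves both branches. Its signals at 78 h were 8.96 and 9.28 at 20 °C, 9.51 and 9.74 at 17 °C, 9.74 and 10.31 at 14 °C, 10.46 and 10.34 at 12 °C, 10.52 and 10.94 at 10 °C, and 10.65 and 10.7 at 8 °C. At 6 h it had 9.55 and 9.46 at 20 °C, 10.16 and 10.2 at 17 °C, 11.11 and 10.35 at 14 °C, 11.16 and 11.11 at 12 °C, 11.19 and 11.2 at 10 °C, and 11 and 10.99 at 8 °C. At each harvest all 10 arrays of the lower temperatures were above both control arrays.

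Unlike DFR, UGT78D2 passed as higher in the cold at 6 h. It rose by 1.23 ± 0.22 at 14 °C (2.35-fold, adjusted p = 0.029), by 1.63 ± 0.22 at 12 °C (0.0011), by 1.69 ± 0.22 at 10 °C (3.23-fold, 0.000309) and by 1.49 ± 0.22 at 8 °C (0.000867), with a difference of 0.68 ± 0.22 at 17 °C (0.939). At 78 h it rose by 1.28 ± 0.22 at 12 °C (0.013), by 1.62 ± 0.22 at 10 °C (0.000853) and by 1.56 ± 0.22 at 8 °C (0.000544), with 0.91 ± 0.22 at 14 °C (0.265). The call at 14 °C and 6 h was lost without the A array of 14 °C, the higher of the pair (0.85, adjusted p = 0.275), or either control array, with array weights (0.0617) and with the 6 h arrays fitted alone (0.142). At 12 °C and 78 h the call was lost without either array of 12 °C or either control array (adjusted p up to 0.159).

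UGT78D1 adds rhamnose to the same position of flavonols and belongs to the same family. It had 9.81 and 10.33 at 20 °C, 10.25 and 10.4 at 17 °C, 10.14 and 10.74 at 14 °C, 10.48 and 10.54 at 12 °C, 10.3 and 10.65 at 10 °C, and 10.27 and 10.52 at 8 °C at 78 h. At 6 h it had 10.37 and 10.37 at 20 °C, 10.37 and 10.54 at 17 °C, 10.65 and 10.53 at 14 °C, 10.5 and 10.83 at 12 °C, 10.28 and 10.6 at 10 °C, and 9.86 and 10.53 at 8 °C. Both arrays stood clear of the control pair only at 12 °C and 78 h and at 14 and 12 °C and 6 h. No difference from 20 °C passed the test, with estimates between 0.25 and 0.44 at 78 h and between -0.18 and 0.29 at 6 h (SE 0.24 each). Its slope was 0.28 ± 0.17 at 78 h, with a 95% interval of -0.08 to 0.64, and -0.07 ± 0.17 at 6 h, with an interval of -0.43 to 0.29, so that slopes as steep as those of UGT78D2 lay outside both intervals.

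The remaining members work on anthocyanins alone. UF3GT adds xylose to the glucose at position 3. It had 8.62 and 8.65 at 20 °C, 9.52 and 8.79 at 17 °C, 9.56 and 9.69 at 14 °C, 10.35 and 10.09 at 12 °C, 10.36 and 10.56 at 10 °C, and 9.99 and 10 at 8 °C at 78 h, all above the control arrays. At 6 h it had 9.2 and 8.77 at 20 °C, 9.74 and 8.99 at 17 °C, 9.97 and 9.06 at 14 °C, 9.51 and 9.17 at 12 °C, 9.19 and 9.01 at 10 °C, and 9.05 and 9.08 at 8 °C. Each of these groups overlapped the control, and the A arrays were above the B arrays except at 8 °C. UF3GT rose at 78 h by 1.59 ± 0.29 at 12 °C (adjusted p = 0.0223), by 1.83 ± 0.29 at 10 °C (3.55-fold, 0.00251) and by 1.36 ± 0.29 at 8 °C (0.0103). Its difference at 14 °C was 0.99 ± 0.29 (0.511), and at 6 h no difference exceeded 0.53. The calls at 12 and 8 °C were lost without either array of that temperature or either control array of 78 h (adjusted p up to 0.261 and 0.0759).

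AT4G14090 encodes the glucosyltransferase that acts at position 5 of anthocyanins. Its arrays of 78 h gave 8.55 and 8.23 at 20 °C, 9.53 and 8.63 at 17 °C, 9.54 and 9.72 at 14 °C, 10.37 and 10 at 12 °C, 10.33 and 10.42 at 10 °C, and 10.22 and 10.05 at 8 °C. At 6 h it had 8.75 and 8.05 at 20 °C, 9.65 and 8.43 at 17 °C, 9.79 and 8.53 at 14 °C, 9.3 and 8.42 at 12 °C, 9.25 and 8.62 at 10 °C, and 9.01 and 8.62 at 8 °C. The lower temperatures stood clear of the control at 78 h and overlapped it at 6 h, where the A array was above the B array in every group. At 78 h AT4G14090 rose by 1.98 ± 0.46 at 10 °C (3.95-fold, adjusted p = 0.0255) and by 1.74 ± 0.46 at 8 °C (0.0334). At 12 °C the difference was 1.79 ± 0.46 (0.105, and 0.00207 with the block, 0.0231 with array weights and 0.0318 with the 78 h arrays fitted alone) and at 14 °C 1.24 ± 0.46 (0.835). The calls at 10 and 8 °C were lost without either array of that temperature or either control array of 78 h (adjusted p up to 0.153 and 0.191).

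AT5MAT attaches malonic acid to the glucose at position 5, the step after AT4G14090. Its signals at 78 h were 6.99 and 6.97 at 20 °C, 7.82 and 7.32 at 17 °C, 7.74 and 8.06 at 14 °C, 8.64 and 8.39 at 12 °C, 8.8 and 8.78 at 10 °C, and 8.75 and 8.53 at 8 °C. At 6 h it had 7.12 and 6.82 at 20 °C, 7.95 and 7.42 at 17 °C, 8.17 and 7.51 at 14 °C, 7.89 and 7.93 at 12 °C, 8 and 7.8 at 10 °C, and 7.86 and 7.89 at 8 °C. Every array of a lower temperature was above both control arrays at each harvest, and at 6 h the means of 14, 12, 10 and 8 °C lay close together.

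Among the members that work on anthocyanins alone, only AT5MAT had called differences at 6 h. They were 0.94 ± 0.22 at 12 °C (1.92-fold, adjusted p = 0.0329), 0.93 ± 0.22 at 10 °C (0.0195) and 0.90 ± 0.22 at 8 °C (0.0246), with 0.87 ± 0.22 at 14 °C (0.128, and 0.0138 with the block) and 0.71 ± 0.22 at 17 °C (0.898). At 78 h it rose by 1.54 ± 0.22 at 12 °C (0.00569), by 1.81 ± 0.22 at 10 °C (3.51-fold, 0.00044) and by 1.66 ± 0.22 at 8 °C (0.000366), with 0.92 ± 0.22 at 14 °C (0.265, and 0.0235 with the block). Each of the 3 calls at 6 h was lost without either array of its own temperature or the lower control array, B, and that at 12 °C also without the A control array (adjusted p up to 0.267 at 12 °C, 0.179 at 10 °C and 0.21 at 8 °C). All 3 were also lost with the 6 h arrays fitted alone (0.15 at 12 °C, 0.0937 at 10 °C and 0.111 at 8 °C). The call at 12 °C and 78 h was lost without the A array of 12 °C or either control array (up to 0.0833).

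At 17 °C, the mildest cooling, no difference passed, but the arrays can be set side by side. At 78 h both 17 °C arrays were above both control arrays for DFR, UF3GT, AT4G14090, AT5MAT, UGT78D2 and CHIL, 6 of 8 members, while 22.9% of all probe sets were apart in one direction or the other. At 6 h this held for AT5MAT and UGT78D2, with AT1G23390 apart below, 3 of 8 members against 23.6% of all probe sets. The cold end was compared with 10 °C as well, a comparison added after the data were seen. The highest mean of 78 h lay at 10 °C for DFR, UF3GT, AT4G14090, AT5MAT, UGT78D2 and CHIL. At 8 °C DFR differed from 10 °C by -0.40 ± 0.27, UF3GT by -0.47 ± 0.29 and AT4G14090 by -0.24 ± 0.46. None of these passed (adjusted p = 1), and the test called 0% of all probe sets at 78 h and 0% at 6 h, with 360 and 154 at an unadjusted p under 0.05.

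The slope, the change per 10 °C of cooling fitted through all 6 temperatures, sums up each harvest in a single value. At 78 h 6 members rose with cooling and 1 fell (background 12.1%), and at 6 h 2 rose and 1 fell (background 11%). With the block 6 rose and 1 fell at 78 h (background with the block 29.5%), and 3 rose and 1 fell at 6 h (27%). The median slope of the members was 1.47 at 78 h and 0.10 at 6 h, beside 0.02 and 0.01 over all probe sets. Only 24 of 22746 probe sets rose more steeply than DFR at 78 h. The call of the slope of AT5MAT at 6 h, 0.67 ± 0.16, was lost without the B control array of 6 h (0.58, adjusted p = 0.0938), with the 6 h arrays fitted alone (0.0591) and in the A arrays alone (0.49, 0.218).

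**Figure D2:**
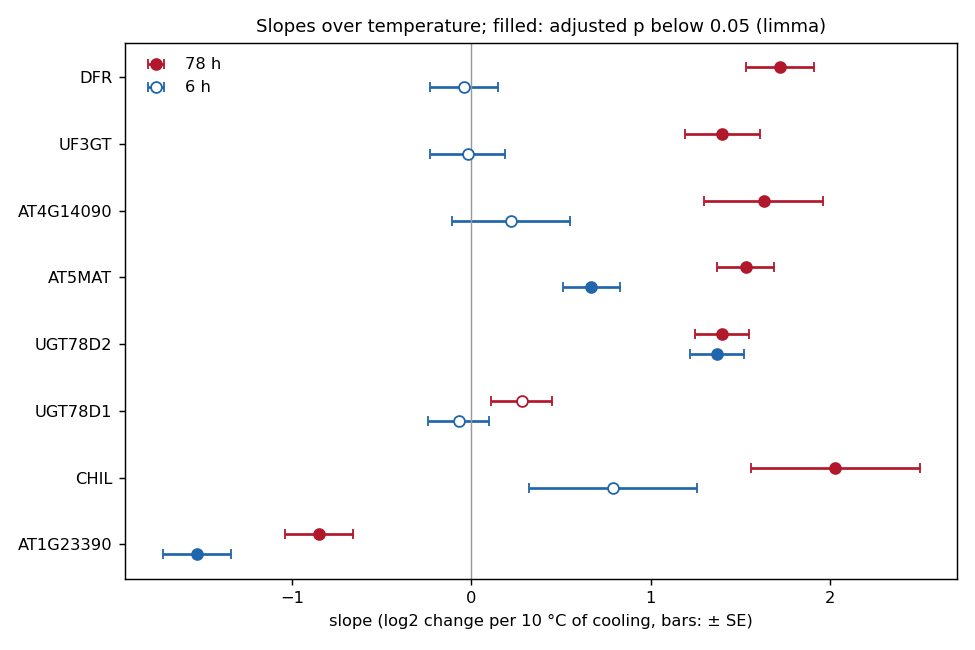
Slope of each gene over temperature (horizontal axis, log2 change per 10 °C of cooling, bars ± SE from limma) at 78 h (red) and 6 h (blue), with filled points for adjusted p below 0.05. The points of both harvests lie together for UGT78D2 (1.40 and 1.37), far apart for DFR (1.72 and -0.04) and UF3GT (1.40 and -0.02), and left of 0 at both harvests only for AT1G23390.

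Whether a gene responded differently at the harvests was tested as the slope at 78 h minus that at 6 h. It differed for 2 of 8 members (background 2.56%) and for 5 with the block (background with the block 14.7%). For DFR the slopes were 1.72 ± 0.19 at 78 h and -0.04 ± 0.19 at 6 h, a difference of 1.77 ± 0.27 (adjusted p = 0.00377), the 5th largest of all probe sets. For UF3GT they were 1.40 ± 0.21 at 78 h and -0.02 ± 0.21 at 6 h, a difference of 1.42 ± 0.29 (0.0199), a call lost when the A array of 20 or 8 °C at 6 h, or any array of 20 or 8 °C at 78 h, was left out (adjusted p up to 0.0694). AT4G14090, with 1.63 ± 0.33 at 78 h and 0.22 ± 0.33 at 6 h, had a difference of similar size, 1.40 ± 0.46, that did not pass (0.162) and did with the block (0.00438) and in the B arrays alone (0.0286).

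The other members were less clearly split. AT5MAT rose at both harvests, and its slopes differed by 0.86 ± 0.22 (adjusted p = 0.0567). That difference passed with the block (0.00438), median centring (0.0351), array weights (0.0477), without the dimmest probe sets (0.0487) and in 4 omissions of an array. CHIL had a difference of 1.24 ± 0.67 (0.508, and 0.017 with the block or 0.0202 in the A arrays alone). AT1G23390 had one of 0.68 ± 0.27 (0.276), with slopes of -0.85 ± 0.19 at 78 h and -1.53 ± 0.19 at 6 h. For UGT78D2 the difference was 0.03 ± 0.22 with a 95% interval of -0.43 to 0.50, so that a difference as large as that of DFR lay outside it, and for UGT78D1 it was 0.35 ± 0.24 (0.658).

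Taken at single temperatures, the change at 78 h minus the change at 6 h was called for 1 member, DFR at 10 °C, with 2.05 ± 0.38 (adjusted p = 0.0343, background 0.409%). This call was lost in 12 of 24 omissions of an array, namely of either array of 20 or 10 °C at each harvest and of 12 or 8 °C at 78 h (adjusted p up to 0.173). No member was called at 12 °C (background 0.0352%), 8 °C (0.321%), 14 °C (0%, with 627 probe sets at an unadjusted p under 0.05) or 17 °C (0%, with 221). With the block the calls at 10 °C were DFR, UF3GT, AT4G14090, AT5MAT and AT1G23390, 5 of 8 members (background with the block 6.93%). At 8 °C they were DFR (0.00424) and UF3GT (0.0309) against 6.5%, and at 12 °C DFR (0.0379) against 1.46%.

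The control plants themselves were compared between harvests as the background of these differences. At 20 °C no probe set differed between 78 h and 6 h (0%, with 325 at an unadjusted p under 0.05). The members had a median of -0.33, beside 0 over all probe sets. DFR stood at -0.47 ± 0.27, UF3GT at -0.35 ± 0.29, CHIL at -0.57 ± 0.67, UGT78D2 at -0.38 ± 0.22 and UGT78D1 at -0.30 ± 0.24. AT4G14090 had -0.01 ± 0.46, AT5MAT 0.01 ± 0.22 and AT1G23390 0.27 ± 0.27. These control groups enter each difference between the harvests, and their part in it was not tested.

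Slopes in the A and the B arrays alone, a fit added after the data were seen, had the same sign at 78 h for all 8 members. At 6 h they had opposite signs for DFR (-0.10 in A and 0.01 in B), UF3GT (-0.27 and 0.23) and UGT78D1 (-0.31 and 0.17), the members whose slope at 6 h was nearest to 0. For DFR at 78 h they were 1.57 in A and 1.87 in B, and for UGT78D2 at 6 h 1.33 in A and 1.41 in B.

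**Figure D3:**
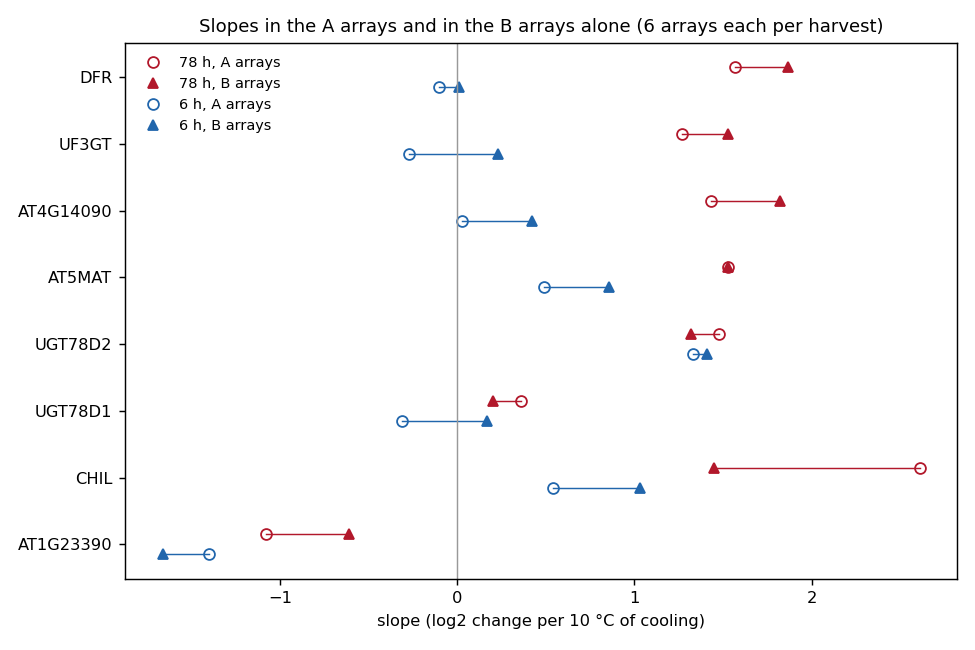
Slopes (horizontal axis, log2 change per 10 °C of cooling) fitted as a straight line through the 6 A arrays (circles) or the 6 B arrays (triangles) of a harvest, 78 h in red and 6 h in blue. The letters lie closest for AT5MAT at 78 h (1.53 in each) and farthest apart for CHIL at 78 h (2.61 in A and 1.45 in B).

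A wider list of 58 other genes of the pathway was looked up, and 4 of them had a probe set of their own. By role these were 0 of 9 genes of general phenylpropanoid synthesis, 1 of 8 of the flavonoid core, 2 of 12 of decoration and transport, 1 of 16 activators, 0 of 9 repressors and 0 of 4 other kelch F-box genes. The rest, chalcone synthase and the PAP regulators included, were not analysed here. Of the 4, 3 had a called rising slope at 6 h (background 11% of all probe sets) and 1 at 78 h (12.1%). With the block 2 rose at 78 h (background with the block 29.5%), and none fell.

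UGT78D3, which adds arabinose at the 3-O position of flavonols, was higher in the cold at 6 h and passed no test at 78 h. At 78 h it had 5.23 and 5.14 at 20 °C, 5.05 and 5.35 at 17 °C, 5.33 and 5.35 at 14 °C, 5.32 and 5.19 at 12 °C, 5.63 and 5.31 at 10 °C, and 5.69 and 5.4 at 8 °C. At 6 h it had 5.1 and 5.29 at 20 °C, 5.24 and 5.38 at 17 °C, 5.94 and 5.48 at 14 °C, 6.77 and 6.68 at 12 °C, 6.86 and 7.26 at 10 °C, and 6.97 and 6.35 at 8 °C. Over temperature it had a slope of 0.30 ± 0.14 at 78 h (adjusted p = 0.237), against 1.63 ± 0.14 at 6 h (6.03e-06), and the difference of -1.33 ± 0.20 passed (0.00377), in the direction opposite to that of DFR. At 6 h it rose by 1.52 ± 0.20 at 12 °C (0.00117) and by 1.86 ± 0.20 at 10 °C (3.63-fold, 9.06e-05). The 3 genes with a UGT78D symbol here thus showed 3 patterns. UGT78D3 was higher in the cold at 6 h, UGT78D2 at both harvests, and UGT78D1 passed no test. Their levels differed, with mean signals over all arrays of 5.72 for UGT78D3, 10.36 for UGT78D2 and 10.41 for UGT78D1. Whether probes of one bind transcripts of another was not tested.

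HYH, a transcription factor related to the light regulator HY5, rose at both harvests, with slopes of 0.89 ± 0.21 at 78 h (adjusted p = 0.0122) and 1.35 ± 0.21 at 6 h (0.000716). Its mean signals were 5.87 at 8 °C against 4.86 at 20 °C at 78 h, and 6.38 at 8 °C against 5.23 at 20 °C at 6 h. Its slope at 78 h lost the call when the A array of 20 or 8 °C of that harvest was left out (up to 0.0741). UGT89C1, which adds rhamnose at the 7-O position of flavonols, rose at 6 h with 1.17 ± 0.32 (0.027) and had 0.76 ± 0.32 at 78 h (0.151, and 0.0429 with the block). Its slope at 6 h was lost without 1 of 4 arrays, the B arrays of 20 and 17 °C and the A arrays of 10 and 8 °C at 6 h (up to 0.196). BAN, an enzyme of tannin synthesis in the seed coat, had slopes of 0.22 ± 0.11 at 78 h (0.267) and 0.04 ± 0.11 at 6 h (0.905).

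**Figure D4:**
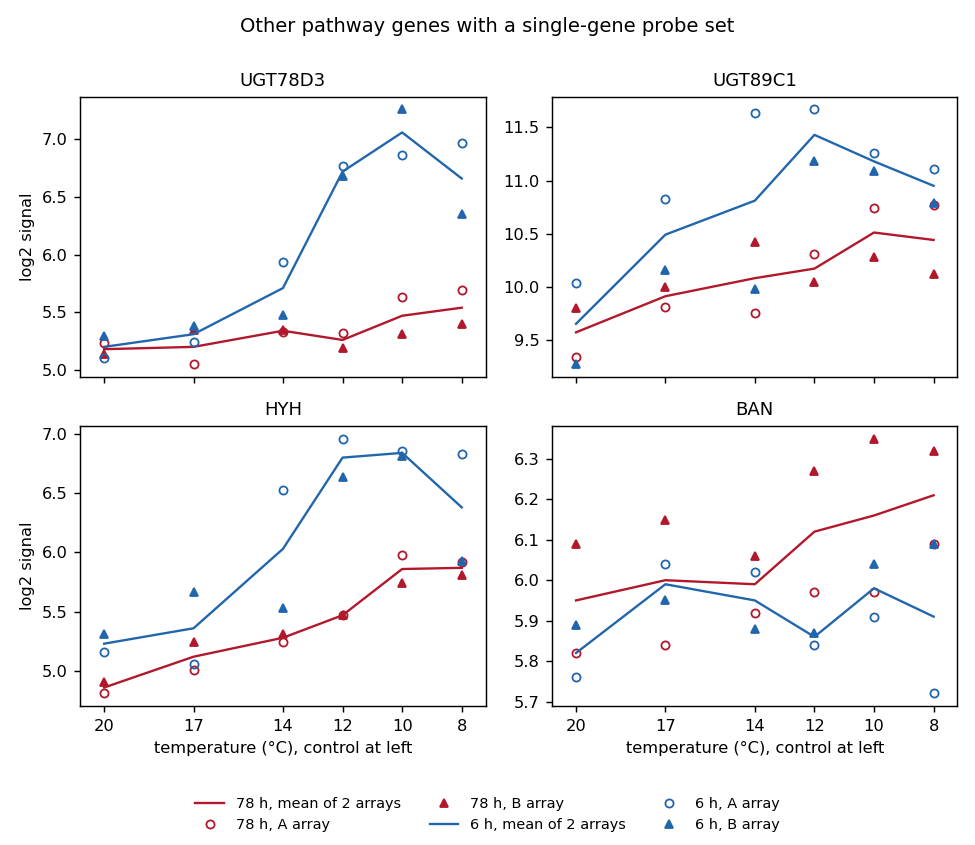
Log2 signal (vertical axes, each with its own range) against temperature in °C for UGT78D3, UGT89C1, HYH and BAN, with 78 h in red and 6 h in blue, A arrays as circles, B arrays as triangles and lines through the means. UGT78D3 climbs at 6 h to 7.06 at 10 °C and stays below 5.7 at 78 h, while BAN stays between 5.72 and 6.35.

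The patterns over the 12 group means were compared with those of 13512 other single-gene probe sets by Pearson's r. These means share arrays, controls and letters, and r is given as a description. For DFR the closest were UF3GT (0.986), AT4G14090 (0.963) and NTRC (0.963), a plastid thioredoxin reductase, and for UF3GT they were DFR (0.986), AT4G14090 (0.966) and AT1G01970 (0.956). AT4G14090 was closest to 2A6 (0.97), AT1G06690 (0.968) and UF3GT (0.966), so that these 3 anthocyanin genes were among the nearest to each other. AT5MAT was closest to the glutathione reductase gene GR1 (0.983), AT1G22850 (0.978) and AT3G55520 (0.975), and had 0.912 with DFR.

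The remaining members were closest to other genes in this ranking. UGT78D2 was closest to AT5G08570 (0.983), AT1G55690 (0.981) and AT5G35910 (0.971), with 0.381 to DFR and -0.889 to AT1G23390. AT1G23390 was closest to AT3G07310 (0.993), AT2G29290 (0.99) and the autophagy gene ATG8E (0.987). CHIL was closest to AT5G62210 (0.978), AT3G19740 (0.951) and SDH1-1 (0.951), a subunit of succinate dehydrogenase, and had 0.885 with AT5MAT and 0.854 with UGT78D2. UGT78D1 had the lowest top values, 0.907 with AT1G70720, 0.9 with AT5G10730 and 0.858 with SPPA.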

How the data were processed

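The authors deposited values on a log2 scale (the base was inferred from their range) already normalized between arrays, since each array's sorted profile departed from the mean profile by at most 0.116. The normalization method is not given in the sources used here. Per the labels' protocols, RNA was extracted with Trizol and made into biotinylated cRNA. Of 22810 probe sets 64 controls were left out. The probe set annotation listed 1 gene for 13513, several for 503 and none for 8730, and symbols came from the RefSeq table of TAIR10.1 (13436 matched). No probe set with several genes named a gene.

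limma 3.58.1 under R 4.3.3 was run on the 24 arrays together, with a separate mean for each group, empirical Bayes moderation, 12 residual degrees of freedom and Benjamini-Hochberg adjustment over 22746 probe sets. Slopes and their differences are contrasts of the group means. All comparisons with 20 °C at a harvest share its control arrays. The pipeline was also run on simulated data with known slopes at 78 h. These were drawn without a difference between the letters, so that this run cannot show how the tests behave with one. No curvature contrast of a member passed.

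The letters pair the samples: across all 66 pairs of groups the A-minus-B differences correlated between 0.52 and 0.89 (median 0.67), and within a group the arrays correlated between 0.982 and 0.992. A second fit had the letter as a block (11 residual degrees of freedom), and its value is printed where it changes a call. The labels mention typically at least 5 replicate samples, and how the 2 arrays relate to these was not settled. The p-values measure the spread between these samples, which may be technical. In the main fit, which does not use the pairing, that spread includes the shared difference between the letters. The block takes this difference out. For CHIL at 10 °C and 78 h the SE was 0.67 in the main fit and 0.32 with the block.

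The members and lists were chosen with earlier results of these data known. All 8 members are named, with the 3 genes closest in pattern to each and the measured genes of a pathway list. Alternatives were the block, leaving out each array, array weights, cyclic loess, median centring, each harvest alone, trend with robust estimation, regression on temperature, a filter that removed the dimmest 25%, Spearman's rho for likeness and, added after the data were seen, each letter alone.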

Additional observations from a re-analysis of the deposited data

Results flagged for a closer look

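For 3 results of the members the effect of cooling differed between the harvests by a test of the difference itself. The slope of DFR at 78 h minus that at 6 h was 1.77 ± 0.27 (limma adjusted p = 0.00377), and it was called in every omission of an array. The change of DFR at 10 °C against 20 °C at 78 h minus that at 6 h was 2.05 ± 0.38 (0.0343), and its adjusted p reached 0.0596 with cyclic loess and 0.173 in the omissions of 1 array. The slope difference of UF3GT was 1.42 ± 0.29 (0.0199), up to 0.0694 in the omissions. All 4 arrays of 10 and 8 °C at 78 h were above those of 6 h at the same temperatures for both genes, and the controls of the harvests did not pass the test. Of the 4 other pathway genes measured, UGT78D3 passed in the opposite direction. Its slope difference was -1.33 ± 0.20 (0.00377). Its difference at 10 °C was -1.57 ± 0.29 (limma adjusted p = 0.0333), a call lost in 8 omissions of an array (up to 0.171). A cause was not tested.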

How the results depend on the processing

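The members' calls against 20 °C numbered 15 at 78 h and 10 at 6 h. The replicate block gave 22 and 14, and each harvest alone gave 16 and 6, with the 3 calls of AT5MAT at 6 h and that of UGT78D2 at 14 °C lost. Without 1 array they ranged from 7 to 17 at 78 h, lowest when the A control array of 78 h was left out (8 without the B control array), and from 6 to 11 at 6 h, lowest without the B control array of 6 h. Slope calls numbered 7 at 78 h (5 to 7 without 1 array) and 3 at 6 h (2 to 3). Slope differences between harvests were called for 2 members, for 5 with the replicate block and for 1 to 3 without 1 array. The differences at single temperatures gave 1 call, 8 with the replicate block, 0 with cyclic loess (DFR at 10 °C, 1.94, adjusted p = 0.0596) and 0 to 2 without 1 array. No called value changed sign under any alternative. Counted once for each array left out, members' calls were lost 66 times and gained 14 times, so that a single call can count several times. The block changed no call of a member beyond those named in the text. All probe sets called for a slope numbered 2750 at 78 h (6711 with the block) and 2513 at 6 h (6131), and 583 for the difference (3354). All 8 members remained without the dimmest 25%. By Spearman's rho UF3GT stayed closest to DFR (0.972), while NTRC fell to a tied rank of 53.5.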

Other observations

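UGT78D2 lies beside AT5G17040 and UGT78D3 in the gene order of TAIR10.1. AT5G17040, which stands between them, rose with cooling by 0.34 ± 0.09 log2 per 10 °C at 78 h (limma adjusted p = 0.0176) and by 0.48 ± 0.09 at 6 h (0.00203). The slope at 78 h was lost without the A array of 20 °C or either array of 8 °C at 78 h (up to 0.124). Its signals ran from 6 to 6.79 over all arrays, so that 3 neighbouring genes rose at 6 h (background 11%), by different amounts. Whether probes of these 3 genes bind transcripts of one another was not tested.

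Among the measured neighbours of the other members, 2 further genes had a called slope. Over all probe sets 12.1% were called for the slope at 78 h and 11% at 6 h. AT5G05250, the second gene from CHIL, fell while CHIL rose at 78 h, with -0.73 ± 0.16 at 78 h (adjusted p = 0.00911) and -0.72 ± 0.16 at 6 h (0.0106), each lost in 2 omissions of an array (20 °C A or 8 °C B at 78 h, 20 °C B or 8 °C A at 6 h, up to 0.0996). AT1G23410, the second gene from AT1G23390, had 0.54 ± 0.15 at 78 h (0.0284, lost in 6 omissions, up to 0.134) and 0.29 ± 0.15 at 6 h (0.278). No slope passed for the neighbours of DFR, UF3GT, AT4G14090, AT5MAT and UGT78D1 that were measured.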
